A study of Mus musculus with 6 samples.

Results

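Regulators of G-protein signaling were read in lung RNA through 10 genes, Rgs1, Rgs2, Rgs3, Rgs4, Rgs5, Rgs10, Rgs12, Rgs16, Rgs18 and Rgs19. They have 27 probe sets of their own among the 45037 that were compared, and 10 of the 18193 genes. Every probe set that the platform's annotation gives to exactly 1 of these genes was used, and each gene was led by the one that was brightest on average over the 6 arrays. All 10 genes had at least 1 such probe set, no probe set was dropped for low values, and 0 probe sets were shared between a member and another gene. The leads were selected on that mean log2 value, and the 10 genes were proposed with their differences between the same LC-HFD and LC-RD arrays known, so the differences are a description and no p is given for them.

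The arrays were made from lungs of 3 LC-HFD and 3 LC-RD mice, 1 mouse per array. Both groups carried CC10-rtTA and tet-O-EGFR-L858R, so that doxycycline (Dox) turned on a mutant human EGFR in cells in which the CC10 promoter is active, and the mice were males on a C57BL/6 background, 6 weeks old at the start of the study. LC-HFD mice (labelled HFD+Dox) ate a high-fat diet with 60% of its energy from fat and LC-RD mice (labelled RD+Dox) a regular diet. Dox was given to both groups through food (625 ppm) and drinking water (2 mg/ml). The labels give the diet until 8 weeks and then Dox for 7 weeks. The study's text gives 2 weeks of diet from 6 weeks of age and then 8 weeks of diet with Dox. The stated lengths of Dox treatment therefore differ. All 6 mice carried the mutant EGFR and received Dox, so the arrays compare diets only in its presence.

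RGS proteins end signals from G-protein-coupled receptors. A receptor loads the Gα subunit with GTP, and the RGS domain speeds the hydrolysis of that GTP, which lets Gα rejoin Gβγ. Proteins of the R4 family, most of them little more than an RGS domain, act on Gαi and Gαq; Rgs1, Rgs2, Rgs3, Rgs4, Rgs5, Rgs16 and Rgs18 belong to it. Rgs10 and Rgs12 are R12 proteins, which act on Gαi, and Rgs19, also called GAIP, is an RZ protein. In vessels, lymphoid tissue and platelets, R4 genes limit responses to vasoconstrictors, chemokines and agonists of activation.

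Promoters are shown for Rgs5, Rgs4 and Rgs2, because Rgs5 and Rgs4 are neighbors that were both higher and Rgs2 was the brightest of the members that were more than 2-fold lower. Each is the 250 bases before the gene start from the RefSeq table of build GRCm38.p6, written 5′ to 3′ on the strand of the gene. Capitals mark the CCAAT box (CCAAT or ATTGG), the TATA box (TATAAA or TTTATA) and the core of the cyclic AMP response element (CRE core, TGACG or CGTCA).
Rgs5, GRCm38.p6, chr1:169655251-169655500, plus strand: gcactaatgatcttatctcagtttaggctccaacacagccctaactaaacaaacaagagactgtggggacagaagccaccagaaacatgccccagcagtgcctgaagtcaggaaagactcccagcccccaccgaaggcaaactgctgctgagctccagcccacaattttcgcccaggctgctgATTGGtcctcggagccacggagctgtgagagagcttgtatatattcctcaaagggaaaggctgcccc
Rgs4, GRCm38.p6, chr1:169747643-169747892, minus strand: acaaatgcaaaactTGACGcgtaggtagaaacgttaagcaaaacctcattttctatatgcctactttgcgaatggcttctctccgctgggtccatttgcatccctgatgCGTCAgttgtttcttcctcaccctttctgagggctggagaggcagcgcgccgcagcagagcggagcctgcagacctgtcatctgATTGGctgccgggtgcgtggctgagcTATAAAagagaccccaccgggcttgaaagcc
Rgs2, GRCm38.p6, chr1:144004150-144004399, minus strand: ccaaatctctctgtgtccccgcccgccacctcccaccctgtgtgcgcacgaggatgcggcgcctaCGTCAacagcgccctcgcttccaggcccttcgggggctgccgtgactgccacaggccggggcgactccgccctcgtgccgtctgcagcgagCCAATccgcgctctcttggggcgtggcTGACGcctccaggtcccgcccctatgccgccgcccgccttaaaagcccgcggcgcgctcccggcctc
The table held promoters for 8 of the 10 members, in 12 windows. A CCAAT box stood in 4 of the 12 windows, those of Rgs2, Rgs4, Rgs5 and Rgs16, beside 33.8% of all 32851 windows of the same length. It lay 67 bases before the start in Rgs5, 57 in Rgs4 and 94 in Rgs2. The CRE core stood in 3 of the 12 and in 17.8% of all windows, with 2 matches in Rgs2 (67 and 185 bases before the start) and 2 in Rgs4 (141 and 236). The Rgs4 window alone of those shown held a TATA box, 31 bases before the start; one stood in 3 of the 12 windows and in 12.4% of all windows. No match overlapped another, and a match describes letters only.

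The 6 arrays had medians between 4.78 and 4.83 on the log2 scale, and lower quartiles between 3.07 and 3.21, which serve here as a guide to dim values. Of 6 markers of lung epithelium, Sftpc, Sftpb, Scgb1a1 and Ager lay above 12 in both groups and Foxj1 near 6. The sixth, the lineage factor Nkx2-1, averaged 6.84 in LC-HFD and 5.58 in LC-RD lungs and rose by 1.26 (limma adjusted p = 0.000429). Control probe sets separated the groups: hybridization controls averaged 11.5 ± 0.0254 on LC-HFD and 10.0 ± 0.0168 on LC-RD arrays (SD, n = 3 each), and 18S rRNA 7.61 ± 0.0693 on LC-HFD and 12.5 ± 0.0164 on LC-RD arrays (exact permutation p = 0.1 for each, two-sided, the smallest that 3 against 3 arrays allow). For 4 control genes, the 3′ signal exceeded the 5′ signal by 1.58 to 1.70 log2 units on LC-HFD and 1.70 to 1.76 on LC-RD arrays. Diet and array handling therefore cannot be told apart in any difference below. The spread among mice was small, with a median SD over all probe sets of 0.137 in LC-HFD and 0.0944 in LC-RD lungs.

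The members moved in both directions. Rgs5 and Rgs4 were higher in LC-HFD lungs on every probe set, Rgs1, Rgs2 and Rgs18 were lower on every probe set except for a dim one of Rgs2 whose groups overlapped, and the groups also overlapped for Rgs10 and Rgs19. Each probe set was compared with limma over all 45037 probe sets, with Benjamini-Hochberg adjustment. A probe set was called if it changed over 2-fold with an adjusted p under 0.05. That held for 8 of the 27, of which 4 were higher and 4 lower in LC-HFD, beside 1.73% of the whole table (0.671% higher, 1.06% lower). By adjusted p alone 17 passed, 8 higher and 9 lower, beside 25.0% of all probe sets (11.3% and 13.6%). The LC-HFD and LC-RD values did not overlap in 20, 9 higher and 11 lower, beside 43.8% of all (22.0% and 21.8%). Counted by gene on the brightest probe set, 4 of 10 were called, 1 higher and 3 lower, beside 1.68% of genes (0.605% and 1.07%). By adjusted p 6 passed, 2 higher and 4 lower, beside 27.3% (11.1% and 16.2%), and 8 did not overlap, 2 higher and 6 lower, beside 49.1% (22.3% and 26.8%). These counts follow from a choice of genes made with the comparison known, and nothing is read from them. The median difference was −0.04 over the 27 probe sets and 0.04 over all probe sets. Of the members, the value nearest to 2-fold from below was Rgs4 (0.75 log2 units) and the nearest from above was Rgs2 (1.10 in size).

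**Figure D1:**
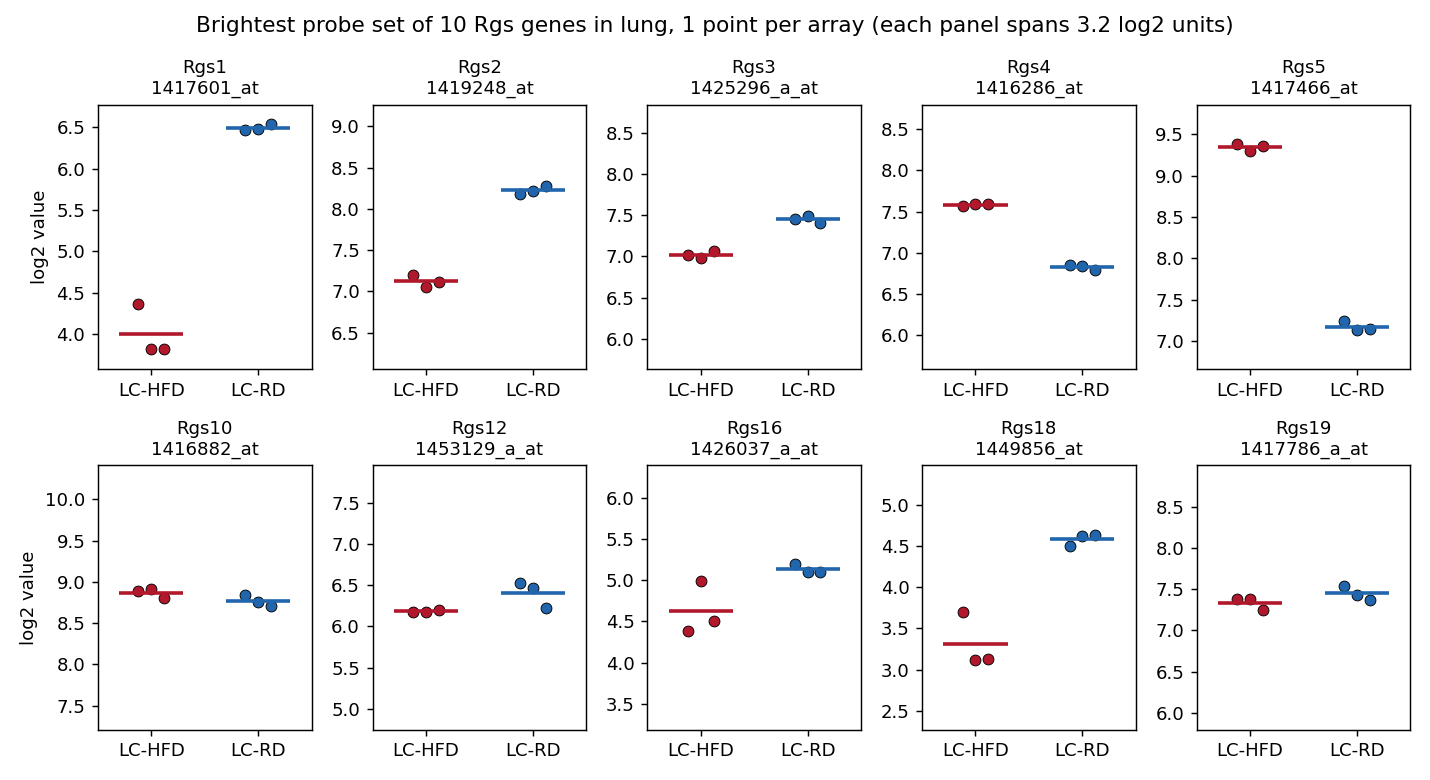
Log2 value of the brightest probe set of each of 10 Rgs genes on 6 arrays, with LC-HFD in red on the left and LC-RD in blue on the right of each panel; points are arrays, lines are group means, and every panel spans the same range on its own axis. The LC-HFD points lie far above the LC-RD points for Rgs5 and far below them for Rgs1, and the groups overlap for Rgs10 and Rgs19.

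Rgs5, a brake on Gαq and Gαi signals that marks pericytes in many tissues, was the member with the largest increase. Its brightest probe set (1417466_at) read 9.39, 9.29 and 9.36 in the LC-HFD lungs, against 7.24, 7.13 and 7.14 in the LC-RD lungs. The groups did not overlap, with means of 9.35 ± 0.0482 in LC-HFD and 7.17 ± 0.0624 in LC-RD (SD, n = 3 each). The log2 difference was 2.17 (standard error 0.0737). The other 3 probe sets of Rgs5 moved the same way and share 1 source sequence. They gave 1.95, 1.93 and 1.39, with LC-HFD values of 6.85 to 6.92, 5.65 to 5.74 and 6.24 to 6.33, against LC-RD values of 4.91 to 4.94, 3.67 to 3.83 and 4.80 to 5.00. The smallest of these, on 1420940_x_at, belongs to a class of probe sets that may also bind other transcripts.

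Rgs4, which lies beside Rgs5 and acts on Gαi and Gαq, was higher on all 3 of its probe sets. The brightest (1416286_at) read 7.56, 7.59 and 7.60 in LC-HFD lungs and 6.86, 6.84 and 6.79 in LC-RD lungs, a difference of 0.75 (standard error 0.0676). The second gave 0.70, with 6.86 to 7.12 in LC-HFD and 6.28 to 6.34 in LC-RD. The third gave 0.48, with 4.86 to 4.96 in LC-HFD and 4.22 to 4.72 in LC-RD. None of the 3 overlapped between the groups, and none reached 2-fold. All 3 share 1 source sequence, so they are not independent readings of the gene.

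Of 9 pericyte markers, read beside Rgs5 and Rgs4, 5 rose and 1 fell in LC-HFD lungs by adjusted p, and their mean log2 value per array was 6.70 to 6.84 in LC-HFD and 6.45 to 6.50 in LC-RD lungs. Cox4i2, a lung form of a cytochrome oxidase subunit, rose by 0.98 (limma adjusted p = 0.00123). Ndufa4l2 rose by 0.77 and Cspg4, which encodes the pericyte proteoglycan NG2, by 0.66. The potassium channel gene Kcnj8 fell by 0.82 (limma adjusted p = 0.00452). Pdgfrb, the receptor that recruits pericytes, averaged 8.46 in LC-HFD lungs and 8.59 in LC-RD lungs and did not pass (−0.13, limma adjusted p = 0.376). All 6 passed in each fit that left out an array. The part of these markers in the Rgs5 and Rgs4 differences was not tested. In whole lung a change in the number of cells of a type and a change in RNA per cell cannot be told apart. Of 6 smooth muscle markers 0 passed by limma in either direction (1 higher and 1 lower at an unadjusted p under 0.05, 0 by the methods' t-test, and 1 without LC-RD replicate 3), with array means of 6.20 to 6.26 in LC-HFD and 6.23 to 6.31 in LC-RD. Of 6 endothelial markers Emcn and Pecam1 rose (0.70 and 0.37) and Tek and Cldn5 fell (−0.38 and −0.23), with array means of 8.13 to 8.26 in LC-HFD and 8.08 to 8.15 in LC-RD; 1 of the 6 passed without LC-RD replicate 1 and 2 without LC-RD replicate 2. Of 3 adipocyte markers Adipoq, a dim one, rose by 0.70 (adjusted p = 0.0240), and it did not pass without LC-HFD replicate 2 or 3 or LC-RD replicate 1 or 3.

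Rgs1, a brake on chemokine receptors of B and T cells, showed the largest decrease of the 27 probe sets. Its only probe set (1417601_at) read 4.37, 3.81 and 3.81 in LC-HFD lungs, against 6.47, 6.49 and 6.54 in LC-RD lungs. All LC-HFD values lay over 2 log2 units below the LC-RD values, and 1 of them, replicate 1, stood above the other two. The means were 4.0 ± 0.319 in LC-HFD lungs and 6.50 ± 0.0365 in LC-RD lungs, and the difference was −2.50 (standard error 0.153). The LC-HFD values lay below the array medians and the LC-RD values above them.

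Rgs18, which in platelets and megakaryocytes restrains Gαi and Gαq, was lower on both of its probe sets, which share 1 source sequence. The brighter (1449856_at) read 3.70, 3.12 and 3.12 in LC-HFD lungs, against 4.50, 4.62 and 4.63 in LC-RD lungs, a difference of −1.27 (standard error 0.160). The other (1420398_at) read 2.54, 2.11 and 2.11 in LC-HFD lungs, against 4.46, 4.43 and 4.35 in LC-RD lungs, a difference of −2.16 (standard error 0.127). The groups were apart on both, and LC-HFD replicate 1 was again the highest of its group. Below the lower quartile of their arrays lay 2 of the 3 LC-HFD values on the brighter probe set and all 3 on the other, so the sizes of both differences are uncertain.

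Rgs2, which acts on Gαq above all and is induced early after many stimuli, was lower on its 3 bright probe sets. The lead (1419248_at) read 7.20, 7.05 and 7.12 in LC-HFD lungs, against 8.18, 8.22 and 8.27 in LC-RD lungs, a difference of −1.10 (standard error 0.0756). The groups did not overlap there, nor on the next pair of probe sets, which gave −0.65 and −0.55. The dimmest, at 3.19 to 3.38 in LC-HFD and 3.27 to 3.36 in LC-RD, gave −0.04, and its groups overlapped. Over the median of its 4 probe sets the difference of Rgs2 was −0.64, which is under 2-fold.

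Markers of the cells in which these genes are known were read beside them. Of 9 platelet and megakaryocyte markers 5 fell, and their mean log2 value was 5.18 to 5.33 in LC-HFD and 5.75 to 5.94 in LC-RD lungs. Ppbp, a chemokine of platelet granules, fell by 2.27 (limma adjusted p = 4.2e-05). Tubb1, the tubulin of platelets, fell by 1.42 and Gp1bb, a subunit of the von Willebrand factor receptor, fell by 0.95, and these 3 passed in all 6 fits that left out an array. Itgb3 fell by 0.41 (adjusted p = 0.0432), and the count of 5 was 3 without LC-HFD replicate 3 or any LC-RD replicate. Itga2b, the platelet integrin subunit, did not pass (0.15, limma adjusted p = 0.419). Of 6 B cell markers 2 rose and 1 fell, with Cd79a at 0.96, Pax5 at 0.42 and Ms4a1 at −0.70, and array means of 5.71 to 5.80 in LC-HFD and 5.71 to 5.75 in LC-RD. Of 6 T cell markers 0 passed by limma (1 higher and 1 lower at an unadjusted p under 0.05, and 0 by the methods' t-test; 2 passed without LC-HFD replicate 1, and 1 without LC-HFD replicate 2 or LC-RD replicate 3), with array means of 4.71 to 4.93 in LC-HFD and 4.77 to 4.88 in LC-RD. Of 4 neutrophil markers 2 fell, S100a8 and S100a9, with array means of 6.70 to 6.92 in LC-HFD and 7.04 to 7.13 in LC-RD. Csf3r and Cxcr2 went the other way and did not pass (0.33 and 0.26, limma adjusted p = 0.0867 and 0.184). Without LC-HFD replicate 2, 1 of the 4 rose. Heart muscle markers averaged 4.38 to 4.53 in LC-HFD and 4.76 to 5.03 in LC-RD arrays, with 3 of 6 lower, Myl7, Actc1 and Myh6. Of these Myh6 passed in only 1 of the 6 fits that left out an array. Nppa, a dim marker, did not pass (0.24, limma adjusted p = 0.377). The part of any of these in the differences of Rgs1, Rgs2 and Rgs18 was not tested.

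Rgs3 and Rgs16 were the R4 members whose probe sets did not all go the same way. Rgs3, the longest R4 protein, has splice forms that differ at the start. Its lead (1425296_a_at) read 7.02, 6.98 and 7.06 in LC-HFD lungs, against 7.46, 7.50 and 7.41 in LC-RD lungs, a difference of −0.43 (standard error 0.0704). The groups were apart there and on the next pair of probe sets (−0.42 and −0.53), and they overlapped on the dimmest, 1454026_a_at (0.20, with 4.20 to 4.36 in LC-HFD and 3.89 to 4.22 in LC-RD). Rgs16, a brake on Gαi that is induced in activated lymphocytes, read 4.38, 5.00 and 4.50 in LC-HFD lungs on its lead, against 5.20, 5.09 and 5.10 in LC-RD lungs. That is a difference of −0.51 with a standard error of 0.157, and LC-HFD replicate 2 lay close to the LC-RD values. Its other probe sets gave 0.14 and 0.27, so that no single direction held for Rgs16.

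On their brightest probe sets, the members outside the R4 family differed least. Rgs10, which is abundant in macrophages and microglia, read 8.89, 8.91 and 8.80 in LC-HFD lungs, against 8.84, 8.76 and 8.71 in LC-RD lungs. The groups overlapped and the difference was 0.10 (standard error 0.0759). Of 7 macrophage markers 2 rose, Marco and Chil3, and 1 fell, Fabp5, with array means of 9.58 to 9.65 in LC-HFD and 9.55 to 9.59 in LC-RD. Chil3 did not pass without LC-HFD replicate 3 or LC-RD replicate 1 or 2. Cd68 and Adgre1 did not pass (0.11 and −0.004, limma adjusted p = 0.291 and 0.975). Rgs12, a large protein with other signaling domains, read 6.18, 6.17 and 6.20 in LC-HFD lungs on its lead, against 6.52, 6.47 and 6.22 in LC-RD lungs (−0.22, standard error 0.0951). Its other probe sets gave 0.03 and 0.54, the second with 3.88 to 4.09 in LC-HFD and 3.22 to 3.67 in LC-RD, so the direction of Rgs12 differed between probe sets. Rgs19, a brake on Gαi, read 7.38, 7.38 and 7.25 in LC-HFD lungs, against 7.54, 7.43 and 7.37 in LC-RD lungs (−0.11, standard error 0.0818). Its second probe set, 1434940_x_at, belongs to the same class as 1420940_x_at of Rgs5, which may also bind other transcripts. It gave −0.13 with a standard error of 0.192, and the groups overlapped on both probe sets of Rgs19.

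**Figure D2:**
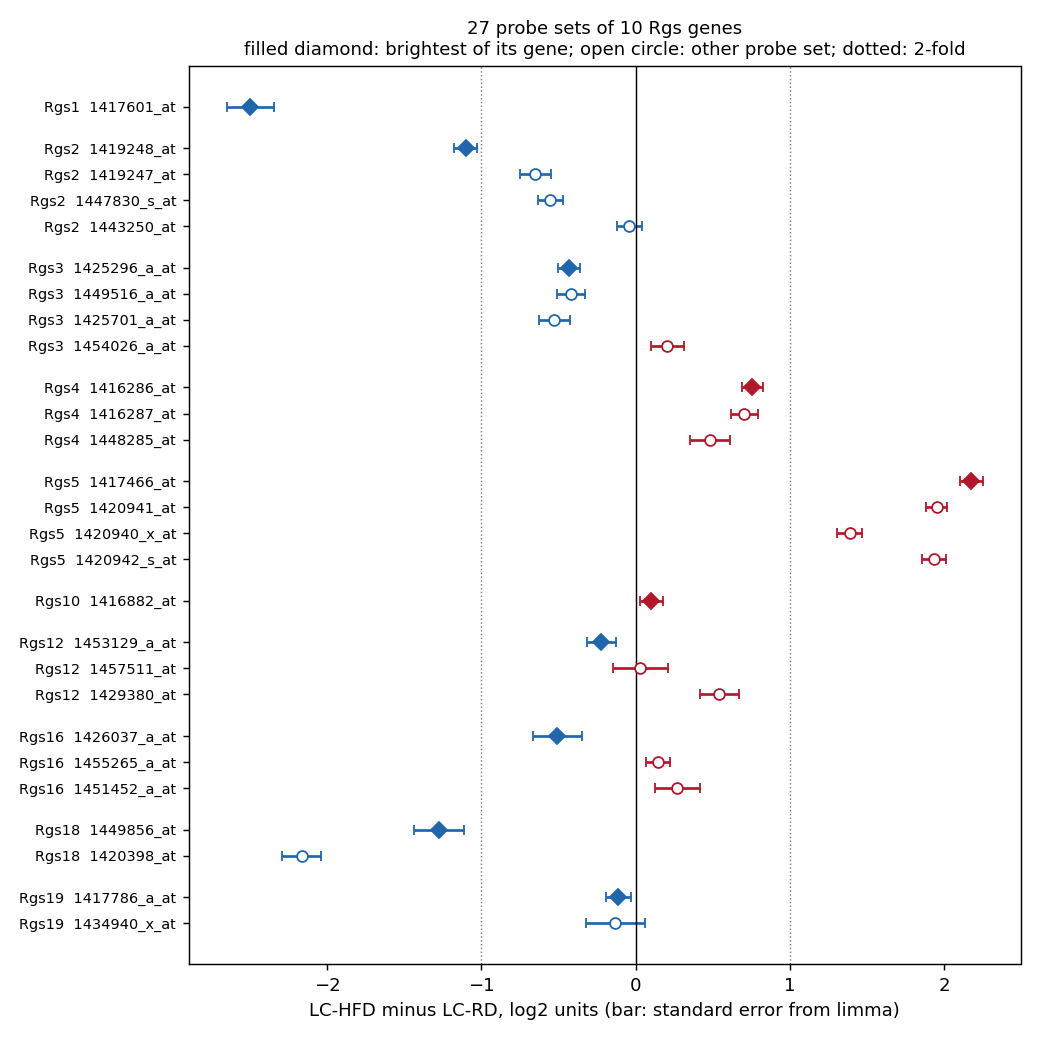
LC-HFD minus LC-RD difference in log2 units (horizontal axis) of each of the 27 probe sets of the 10 genes, with bars of 1 standard error from limma; red is higher and blue lower in LC-HFD, diamonds are the brightest probe set of a gene and dotted lines mark 2-fold. All 4 probe sets of Rgs5 lie beyond 2-fold on the right, and those of Rgs3, Rgs12 and Rgs16 fall on both sides of 0.

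Of the 10 genes 6 lie on mouse chromosome 1, as do Rgs8, Rgs13 and Rgs21, which are not members. The members were chosen with their differences known, so nothing is read from their shared positions or directions. In the RefSeq annotation of GRCm38.p6, Rgs2, Rgs13, Rgs1, Rgs21 and Rgs18 follow one another with no other protein-coding gene between them, and the 3 members of this run were the 3 genes lower by more than 2-fold. Rgs13, which acts in germinal center B cells and sits between Rgs2 and Rgs1, was at 1.55 in LC-HFD and 1.53 in LC-RD lungs, near the lowest values of the arrays, and Rgs21 was not analyzed here. Rgs5 and Rgs4 are direct neighbors in another stretch, and Rgs16 lies beside Rgs8 (2.76 in LC-HFD and 2.56 in LC-RD, limma adjusted p = 0.120).

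The genes that flank these runs were looked up after the values of the members had been seen. Before Rgs2, Ro60 fell by 0.50 (limma adjusted p = 0.00480) and Uchl5, a deubiquitinase of the proteasome, by 0.41 (adjusted p = 0.0222). After Rgs18, Brinp3 did not pass (0.22, adjusted p = 0.127) and Pla2g4a, a phospholipase that releases arachidonic acid, fell by 0.41 (adjusted p = 0.0456). Beside Rgs5, the kinetochore gene Nuf2 fell by 0.92 (adjusted p = 0.000653), opposite to Rgs5, and past Rgs4 the gene Hsd17b7 fell by 0.33 (adjusted p = 0.0204). The flanking genes with a value had smaller differences than Rgs1, Rgs2, Rgs5 and Rgs18, and both of those beside Rgs5 and Rgs4 were lower in LC-HFD.

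**Figure D3:**
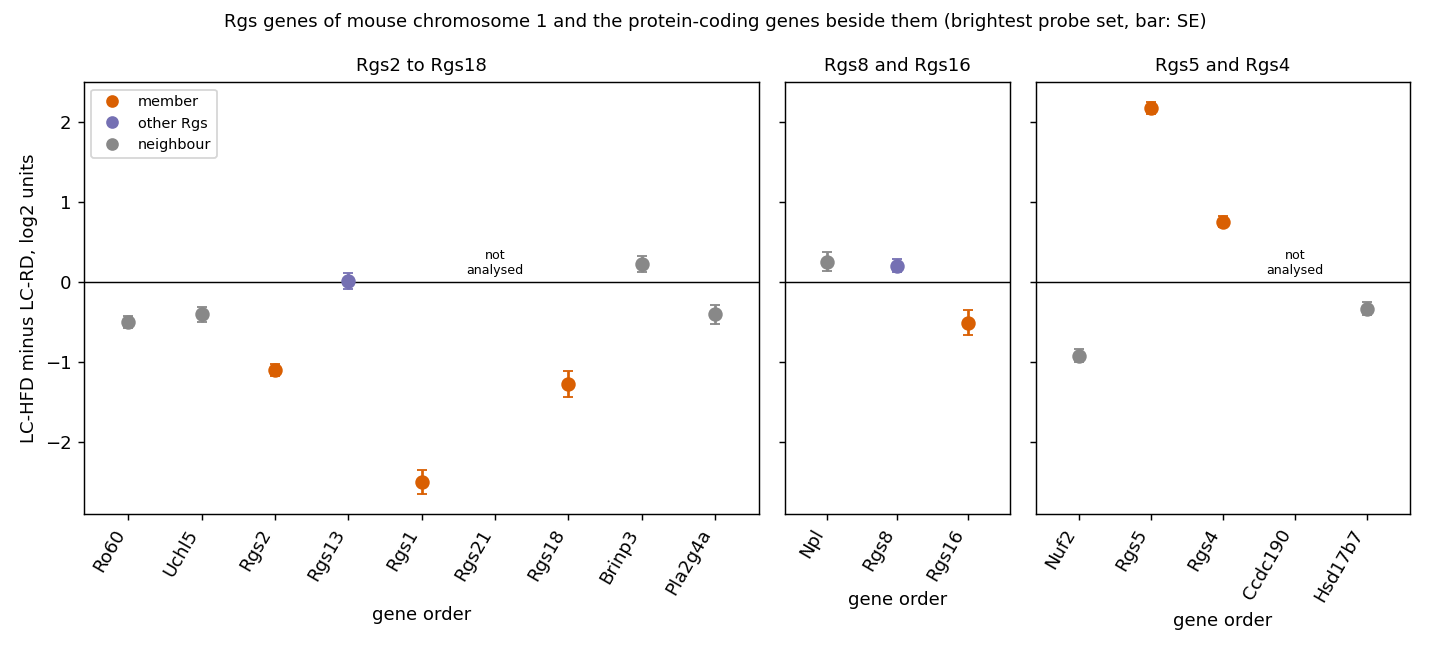
LC-HFD minus LC-RD difference in log2 units (vertical axis, bars of 1 standard error) of Rgs genes on mouse chromosome 1 and protein-coding genes beside them, in their order along the chromosome and not to distance; orange marks members, purple other Rgs genes and gray other neighbors. Rgs2, Rgs1 and Rgs18 lie below their neighbors in the left panel, and Rgs5 and Rgs4 lie above 0 between genes below 0 in the right panel.

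The other Rgs genes, none of which changed 2-fold on its brightest probe set, differed by −0.10 to 0.64. Of 9 other Rgs genes on their brightest probe sets, 2 rose and 0 fell by limma at an adjusted p under 0.05 (3 and 0 at an unadjusted p under 0.05, and 1 and 0 by the methods' t-test), beside 11.1% of all genes higher and 16.2% lower. Their median difference was 0.18, that of the 10 members −0.33 and that of all genes 0.02. Rgs11, an R7 protein that works with Gβ5, read 6.61, 6.67 and 6.67 in LC-HFD lungs, against 6.02, 6.02 and 5.97 in LC-RD lungs. It rose by 0.64 (standard error 0.0681, limma adjusted p = 0.00127). Rgs6, also of the R7 family and known in the heart for slowing the muscarinic response, read 3.79, 3.95 and 3.60 in LC-HFD lungs, against 3.38, 3.28 and 3.21 in LC-RD lungs. It rose by 0.49 (adjusted p = 0.0160), at a dim level, and its other probe set did not pass (0.23, adjusted p = 0.0855). Without LC-RD replicate 2 its adjusted p was 0.0609 and without LC-RD replicate 3 it was 0.0556, which leaves Rgs11 as the 1 gene of the 9 that passed, while Rgs11 passed in all 6 fits that left out an array.

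Among the others, Rgs9 was at 6.15 in LC-HFD and 5.87 in LC-RD lungs on its lead (adjusted p = 0.283), and 1 of its dim probe sets passed with 0.60 (adjusted p = 0.0191). Rgs14, the third R12 gene, averaged 6.77 in LC-HFD lungs and 6.74 in LC-RD lungs (0.03, standard error 0.0892, adjusted p = 0.808). Rgs7, Rgs17 and Rgs20 gave −0.10, 0.06 and 0.18 and did not pass. The difference between these genes and the members was not tested, because the members had been chosen with their changes known.

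The partners of RGS proteins were read from lists of RGS-domain relatives, G-protein subunits, effectors, receptors and desensitizing proteins. Of 101 genes measured in 9 such lists, 12 rose and 20 fell, with a median difference of −0.02. Among all genes 11.1% rose and 16.2% fell. The 32 that passed were 12 without LC-RD replicate 1, 14 without LC-RD replicate 2 and 21 without LC-RD replicate 3. They were 32, 23 and 23 without LC-HFD replicates 1, 2 and 3. Over all 45037 probe sets, the number that passed was 11250 with every array kept. It was 5835, 5792 and 8024 without LC-RD replicates 1, 2 and 3, and 11531, 9362 and 9227 without LC-HFD replicates 1, 2 and 3. The count of 32 thus fell where the number over all probe sets fell. Counts of single lists with an array left out are to be read beside these numbers. Genes that passed in each of the 6 fits that left out 1 array are named as such below.

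Most Gα genes, the direct targets of the RGS domain, did not pass. Of 15, 2 rose and 1 fell. Gnai2, the main Gαi of leukocytes, averaged 10.5 in LC-HFD lungs and 10.1 in LC-RD lungs and rose by 0.43 (limma adjusted p = 0.00851). Gnaq, which encodes Gαq, rose by 0.30 (adjusted p = 0.0198), and Gna15, a Gαq-like subunit of blood cells, fell by 0.37 (adjusted p = 0.0431). Gnai2 passed in all 6 fits that left out an array, and the count of 3 was 1 without LC-RD replicate 1 or 2. Gnaq did not pass without LC-RD replicate 1, 2 or 3. Taken as the median over the probe sets of each gene, 1 of the 15 Gα genes rose and 4 fell. Of 15 Gβ and Gγ genes 3 rose and 3 fell. Gng7, Gng4 and Gnb3 rose by 0.58, 0.51 and 0.39 and Gng10, Gngt2 and Gng11 fell by 0.45, 0.35 and 0.34. That count of 6 was 1 without LC-RD replicate 1 or 2 and 3 without LC-HFD replicate 3 or LC-RD replicate 3, and none of these 6 genes passed in every such fit.

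Proteins that carry an RGS domain in another setting, or bind RGS proteins, were read as 12 genes, of which 2 rose and 1 fell. Arhgef1, whose RGS-like domain acts on Gα13, averaged 9.45 in LC-HFD lungs and 8.19 in LC-RD lungs. It rose by 1.25 (standard error 0.104, limma adjusted p = 0.000599). Axin1, a scaffold of Wnt signaling, rose by 0.29 (adjusted p = 0.0343), and Snx13 fell by 0.38 (adjusted p = 0.0124). Gnb5, the Gβ partner of Rgs11 and Rgs6, did not pass (−0.33, adjusted p = 0.0660). Arhgef1 passed in all 6 fits that left out an array, and 1 of the 12 genes passed without LC-RD replicate 1.

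On their brightest probe sets, effectors moved by small amounts in both directions. Of 12 effectors of Gαq 3 rose and 4 fell, among them Prkcq (0.51), Prkcd (0.40) and Itpr3 (0.35) higher and the phospholipase gene Plcb4 (−0.48, limma adjusted p = 0.00777) lower. Prkcq, Prkcd and Plcb4 passed in all 6 fits that left out an array; the count of 7 was 5 without LC-HFD replicate 1, 4 without LC-HFD replicate 3 and 3 without each of the others. Taken as the median over the probe sets of each gene, 6 of the 12 Gαq effectors rose and 1 fell. Their median difference was then 0.29 in place of −0.15, so the direction of this list depended on the probe sets used. Of 10 adenylyl cyclases 1 rose and 2 fell, with Adcy4 at 0.42, Adcy3 at −0.34 and Adcy9 at −0.29. That count of 3 was 0 without LC-RD replicate 1 and 1 without LC-RD replicate 2 or LC-HFD replicate 3. Among 8 receptor kinases and arrestin-related genes 2 fell and 0 rose by limma (0 at an unadjusted p under 0.05, and 0 by the methods' t-test). Arrdc3, an arrestin-like protein that directs β-adrenergic receptors to lysosomes, had a mean of 6.91 in LC-HFD lungs, against 8.64 in LC-RD lungs, and fell by 1.72 (standard error 0.121, adjusted p = 0.000326), and the receptor kinase gene Grk5 fell by 0.37 (adjusted p = 0.0204). Arrdc3 passed in all 6 fits that left out an array, and Grk5 did not pass without LC-HFD replicate 3 or any LC-RD replicate.

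With all arrays kept, receptors whose signals RGS proteins limit were lower where they passed, except for F2rl2 of platelets. Among all genes 11.1% rose and 16.2% fell. Without LC-HFD replicate 1, 1 of the vessel wall receptors and 2 of the platelet receptors rose. Of 11 Gαi-coupled leukocyte receptors 2 fell and 0 rose by limma (0 at an unadjusted p under 0.05, and 0 by the methods' t-test). Cxcr4 fell by 0.72 (adjusted p = 0.00170) and Ccr2, the receptor of inflammatory monocytes, by 0.91 (adjusted p = 0.000692), while Cxcr5 and Ccr7 of lymphocytes did not pass (0.08 and −0.03). Of 12 receptors of the vessel wall 4 fell and 0 rose by limma (1 at an unadjusted p under 0.05, and 0 by the methods' t-test). Ednrb, an endothelin receptor, fell by 0.81, the thrombin receptor gene F2r by 0.58, Lpar1 by 0.43 and S1pr3 by 0.31. Of these receptors Cxcr4, Ccr2, Ednrb and F2r passed in all 6 fits that left out an array, and 2 of the vessel wall receptors passed without LC-HFD replicate 2, LC-RD replicate 1 or LC-RD replicate 2. Of 6 platelet receptors F2rl2, which helps thrombin to reach its other receptor, rose by 0.49 and P2ry12, a Gαi-coupled ADP receptor, fell by 0.49; P2ry12 did not pass without LC-RD replicate 1 or 2.

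Immediate early genes, a class to which Rgs2 is often counted, were mostly lower in LC-HFD lungs. Of 11, 6 fell, 1 rose and 4 did not pass, and their mean log2 value was 7.85 to 7.87 in LC-HFD and 8.42 to 8.43 in LC-RD lungs. Fos averaged 7.67 in LC-HFD lungs and 9.67 in LC-RD lungs and fell by 2.00 (limma adjusted p = 3.59e-05). Dusp1, a MAP kinase phosphatase, fell by 1.37, Egr1 by 0.83 and Zfp36, which destabilizes cytokine mRNAs, by 0.81. Atf3 rose by 0.39 (adjusted p = 0.0141). All 7 passed in each fit that left out an array. The part of this group in the differences of Rgs1, Rgs2 and Rgs16 was not tested.

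**Figure D4:**
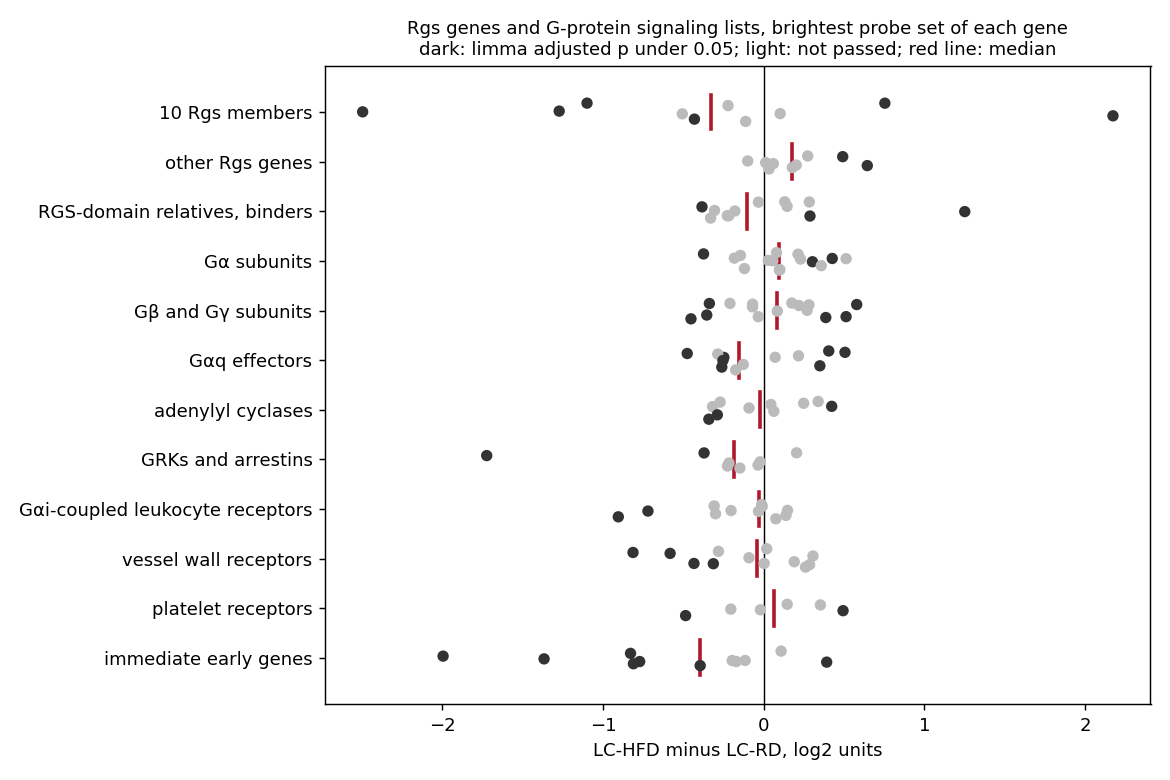
LC-HFD minus LC-RD difference in log2 units (horizontal axis), taken for each gene from its brightest probe set, for the 10 members, the other Rgs genes, 9 lists of G-protein signaling and the immediate early genes; each point is 1 gene, dark points have a limma adjusted p under 0.05 and red lines are list medians. The members span −2.50 to 2.17, while Arhgef1 and Arrdc3 of the 9 partner lists and Fos and Dusp1 of the immediate early genes lie beyond 2-fold.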

How the data were processed

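RNA from the lungs of 6 mice, 3 LC-HFD and 3 LC-RD, was hybridized to Affymetrix Mouse Genome arrays, 1 for each mouse. The deposited values are on the log2 scale, 1 for each array and probe set, and the submitters' processing notes give them as the authors' GCRMA values (background corrected from probe sequence, normalized across arrays), and the study's methods name Partek software; no version or setting is given in the sources used here. Values were not normalized again and 0 columns were left unused. Groups follow the sample titles. No depth applies to arrays, and their number limits the precision.

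Of 45101 probe sets 64 controls were kept apart and 45037 tested, and the platform's annotation gives 1 gene for 34945, several for 932 and no gene for 9160. LC-HFD was set against LC-RD with limma 3.58.1 (R 4.3.3, defaults, two-sided p), adjusted over all 45037 after Benjamini and Hochberg; called means an adjusted p under 0.05 and over 2-fold. The lead probe set of a gene has the highest mean log2 value. Control probe sets were compared by exact permutation. The steps were tested on simulated data. Figures used Python 3.11.15 and matplotlib 3.10.9.

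The members and lists were chosen with earlier results of these data known. Named are all members, all other Rgs genes, up to 4 genes of each list with the largest change among those that passed, defining genes that did not, flanking genes, and the 3 genes most like a member that changed over 2-fold. Alternatives were the methods' t-test, an intensity trend with robust variance, quantile normalization, centering on the array median, a replicate block, a floor on the mean log2 value at 4 or at 6, dropping the fold threshold, a 3′ minus 5′ covariate, the median over the probe sets of a gene and each array left out.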

Additional observations from a re-analysis of the deposited data

How the results depend on the processing

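The member probe sets called numbered 8 in every fit that left out 1 array and the member genes called 4, and the differences then ranged from −2.68 to −2.41 for Rgs1, −1.14 to −1.06 for Rgs2, −1.47 to −1.17 for Rgs18, 0.74 to 0.77 for Rgs4 and 2.15 to 2.21 for Rgs5. When the mean log2 value had to reach 6, so that the probe set of Rgs1, both of Rgs18 and 3 of Rgs5 were not tested, 2 member probe sets and 2 member genes were called; with a floor of 4, where Rgs18 had no tested lead, 6 and 3 were. Without the fold threshold 17 member probe sets passed. Taking the median over the probe sets of a gene reversed Rgs12 (0.23) and Rgs16 (0.12), whose probe sets disagree, and gave −0.64 for Rgs2, under 2-fold, so that 3 member genes were called. The other Rgs genes that passed numbered 1 with the methods' t-test, with a floor of 4 or 6 on the mean, and with the 3′ minus 5′ covariate, and 1 to 2 with 1 array left out. Genes that passed in the partner lists and among the immediate early genes together numbered 39, with 19 to 39 when 1 array was left out. With the 3′ minus 5′ covariate they numbered 11, and the partner lists alone had 6 in place of 32. Over all 45037 probe sets, the number that passed was 11250 in the main fit and 3558 with that covariate. It was 5792 to 11531 when 1 array was left out. The lower counts of these lists thus went with lower numbers over all probe sets, and the cause was not tested. The replicate numbers showed no sign of pairing the mice. The deviations of same-numbered arrays correlated at −0.04, −0.09 and −0.03, and no array correlated best with its own number. With 3 arrays per group this does not settle whether the mice were paired. With the replicate block 8 member probe sets were called, as without it, and 26 genes passed in place of the 39. Over all probe sets, the number that passed with this block was 7906 in place of 11250. All 10 lead differences kept their sign in every other setting in which they were tested. The 3 arrays per group limit what can be seen, and values near the lower quartile of an array, as for Rgs18, have uncertain sizes.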

Other observations

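Among all genes on their brightest probe sets, those whose profile over the 6 arrays lay closest to that of a member were listed for the 4 members that changed over 2-fold. The measure was the Euclidean distance between log2 values centered on the mean of the 6 arrays, so it follows mostly the group difference, and it is a description of these arrays. For Rgs5 the nearest were the imprinted gene Nnat (distance 0.157), Zfp57 (0.305), which maintains imprints, and the fibrillin gene Fbn2 (0.319), which were higher in LC-HFD by 2.19, 2.05 and 2.13. For Rgs1 they were the platelet chemokine gene Ppbp (0.454), Zfp799 (0.728) and Fos (0.730), with differences of −2.27, −2.03 and −2.0. For Rgs2 they were Zfp418 (0.099), Cep55 (0.127), which acts in cytokinesis, and G0s2 (0.141), an inhibitor of triglyceride lipase. For Rgs18 they were Mterf2 (0.070), the centromere gene Cenpq (0.231) and Snrnp40 (0.240), each lower by 1.24 to 1.29 log2 units.

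Rgs1 held the same deposited value in LC-HFD replicates 2 and 3. Those arrays shared identical values in 0.873% of probe sets, within the 0.517% to 1.48% found over all pairs of arrays, and correlated at 0.993 across probe sets, so they are not copies of each other.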
